A study of Mus musculus with 2 samples.

Results

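The cyclin-dependent kinase inhibitor genes Cdkn1a, Cdkn1b, Cdkn1c, Cdkn2a, Cdkn2b, Cdkn2c and Cdkn2d, 7 of the 27998 genes in the count tables, were followed through every cell type of neonatal mouse lung reared in room air or in hyperoxia. They were taken by name, because their products form a single functional class, and Cdkn1a was chosen from its measured level in these libraries, because it was much higher in hyperoxia. Its difference between the libraries is therefore a description. Whole lungs of wild type C57BL/6 pups were profiled by single-cell RNA sequencing (scRNA-seq). The pups had breathed either room air, with 21% O2, or hyperoxia, with 80% O2, from the day of birth (P0) to P14, an exposure used to model bronchopulmonary dysplasia. They were 2 weeks old when the lungs were taken, at P14. The lungs of 8 mice were pooled for each group into 1 library, after enzymatic digestion and lysis of red cells and without a sort, so that neither group had a replicate. No test between the groups was possible, and all intervals below are 95% intervals that cover counting error only.

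Progression from G1 to S phase requires cyclin D with CDK4 or CDK6 and cyclin E with CDK2, which phosphorylate the retinoblastoma protein and release the E2F factors. The Cip/Kip inhibitors p21 (Cdkn1a), p27 (Cdkn1b) and p57 (Cdkn1c) bind complexes of several cyclins and kinases, whereas the INK4 inhibitors p16 (Cdkn2a), p15 (Cdkn2b), p18 (Cdkn2c) and p19Ink4d (Cdkn2d) bind CDK4 and CDK6 alone. Cdkn1a is a classic transcriptional target of p53, which is activated by DNA damage and oxidative stress, and Cdkn1c is an imprinted gene known for its high level in embryonic and neonatal mesenchyme.

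In the GENCODE M21 annotation of GRCm38, the genome build of the tables, Cdkn1a lay at chr17:29090976-29100727 on the plus strand and Cdkn1b at chr6:134920401-134925513 on the plus strand. Cdkn1c lay at chr7:143458339-143461050 on the minus strand. Cdkn2a (chr4:89274471-89294653) and Cdkn2b (chr4:89306299-89311039) were neighbours on the minus strand, with 11645 bases between them. Cdkn2c lay at chr4:109660876-109667189 and Cdkn2d at chr9:21288410-21291407, both on the minus strand. All 7 were annotated as protein coding. Since the kit reads the 3' end of transcripts, the products of Cdkn2a that start at different first exons, p16Ink4a and p19Arf, were counted as 1 gene.

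Promoters were available in the RefSeq table of GRCm38.p6 for 6 of the 7 genes, with 9 start sites. Cdkn1a, Cdkn2a and Cdkn2c were the 3 genes with more than 1 start, and the counts of each sum the transcripts of its starts. The 120 bases before each start are shown for Cdkn1a, which had the largest ratio, and for Cdkn2a, whose starts give different proteins. Capitals mark the motifs that were searched on both strands: the GC box (GGGCGG), the TATA box (TATAAA), the E-box (CACGTG), the CCAAT box (CCAAT), and a p53 element, defined as 2 adjacent p53 half-sites in 20 bases with at most 1 mismatch. The sequences read 5' to 3' on the strand of the gene.
Cdkn1a, first start (chr17:29090859-29090978, plus strand): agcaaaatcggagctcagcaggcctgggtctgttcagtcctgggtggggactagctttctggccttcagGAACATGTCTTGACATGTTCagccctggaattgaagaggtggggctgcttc
Cdkn1a, second start (chr17:29093649-29093768, plus strand): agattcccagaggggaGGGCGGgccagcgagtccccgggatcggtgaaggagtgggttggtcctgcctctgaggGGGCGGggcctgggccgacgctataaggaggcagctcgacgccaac
Cdkn2a, first start (chr4:89294620-89294739, minus strand): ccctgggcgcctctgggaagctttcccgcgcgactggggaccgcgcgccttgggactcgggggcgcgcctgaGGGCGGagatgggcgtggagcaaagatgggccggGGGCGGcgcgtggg
Cdkn2a, second start (chr4:89282193-89282312, minus strand): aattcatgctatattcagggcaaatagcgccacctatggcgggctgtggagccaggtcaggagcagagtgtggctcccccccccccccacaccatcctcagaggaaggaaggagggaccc

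The p53 element of Cdkn1a began 51 bases before the first start. Of the 32851 promoters in the table, 25 held such an element within 250 bases before the start, or 0.0761%. The second start of Cdkn1a, 2790 bases further, had 2 GC boxes in the stretch shown, a motif held by 32.74% of all promoters. A match is a description of the sequence and does not show binding.

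The room air library held 4234 barcodes and 39593888 unique molecular identifiers (UMIs, each a counted mRNA molecule), and the hyperoxia library 13223 barcodes and 111934936 UMIs. The 2 libraries shared 17 barcode sequences. After filters, 3680 cells of room air (median 8063.5 UMIs) and 10472 of hyperoxia (median 7280) were clustered without the 7 genes, and clusters were named from marker genes as endothelial-, epithelial-, stromal-, myeloid- and lymphocyte-like cells and as 28 cell types within them. The 23 types with at least 30 cells in each library were compared. Levels are UMIs of a gene summed over the cells of a group per 1000000 UMIs of that group (CPM), and ratios are given as log2 of hyperoxia over room air. Detection is the share of cells with at least 1 UMI of the gene after each cell was thinned to 2000 UMIs, so that depth is equal. In 7 of the 23 types, aCap-, gCap-, AT2-, alveolar macrophage-, Tcf21 fibroblast-, myofibroblast- and pericyte-like cells, different clusters held most of the cells in the 2 libraries.

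Cdkn1a, the gene of p21, had the largest ratio of the 7 genes over all cells. Over all cells its level was 147 CPM (143 to 151) under room air and 694 CPM (689 to 700) under hyperoxia, a log2 ratio of 2.24 (2.20 to 2.28). Of 9338 genes with a mean of at least 10 CPM, 0.921% were at least 2-fold higher in hyperoxia and 1.37% at least 2-fold lower. When the cell types of hyperoxia were weighted as in room air, the log2 ratio was 2.39. The share of cells with a Cdkn1a UMI at equal depth was 18.2% in room air and 48.8% in hyperoxia, a difference of 30.6 percentage points (28.9 to 32.2).

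The difference was unequal between lineages. In stromal-like cells, Cdkn1a was at 48.1 CPM under room air and 729 CPM under hyperoxia, a log2 ratio of 3.92 (3.80 to 4.05), in a lineage where 1.61% of genes were at least 2-fold higher and 1.27% at least 2-fold lower. In endothelial-like cells the level was 176 CPM under room air and 1249 CPM under hyperoxia (log2 ratio 2.83, 2.75 to 2.91), where 1.83% of genes were at least 2-fold higher and 2.88% at least 2-fold lower. In epithelial-like cells it was 80.1 CPM and 342 CPM (2.09, 1.95 to 2.24), with 1.16% of genes higher and 4.77% lower by that measure. The 2 immune lineages stayed under 2-fold. Myeloid-like cells had 401 CPM and 594 CPM (0.57, 0.50 to 0.63), with 1.37% of their genes at least 2-fold higher and 2.45% lower, and lymphocyte-like cells had 54.4 CPM and 90.5 CPM (0.73, 0.54 to 0.94), with 0.869% higher and 0.921% lower. The intervals of the stromal, endothelial, epithelial and immune ratios did not overlap, while those of the 2 immune lineages did. The epithelial value pooled types with unequal ratios. The airway-like cells among them differed between the libraries in depth and in the removal of doublets, as given below.

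**Figure D1:**
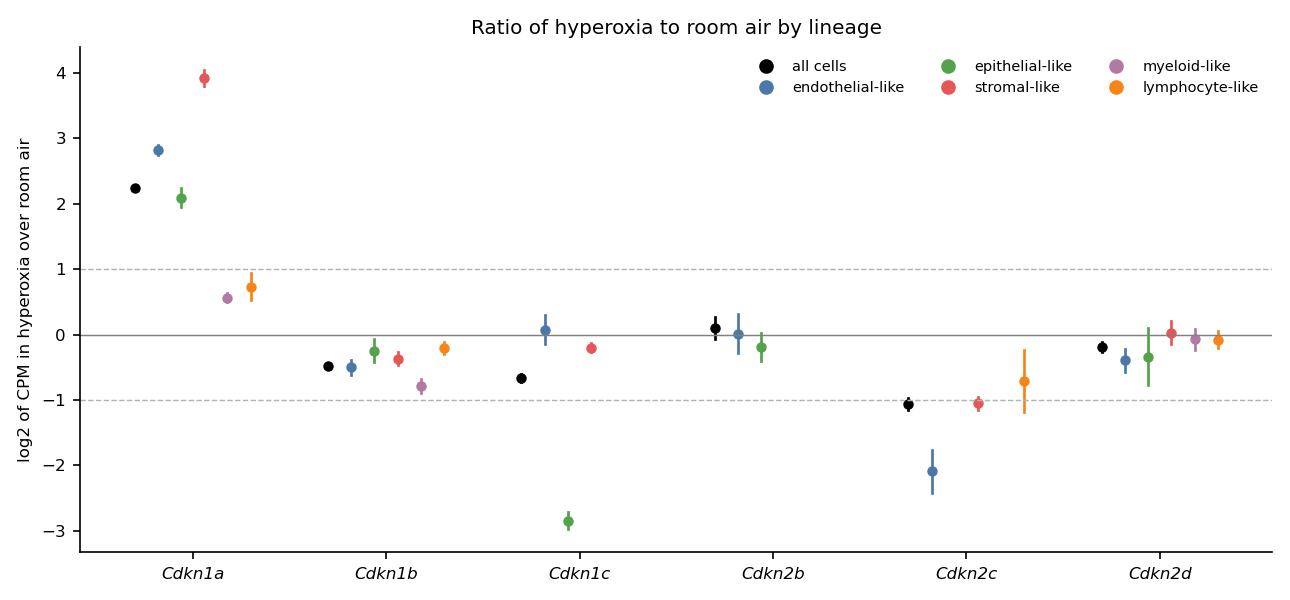
Log2 ratio of hyperoxia over room air for 6 inhibitor genes (x axis) in all cells and in 5 lineages (colours), with 95% counting intervals as bars; dashed lines mark 2-fold, and genes under a mean of 10 CPM in a lineage are not drawn. Cdkn1a lies above 2-fold in stromal-, endothelial- and epithelial-like cells, and Cdkn2c lies at or below 2-fold lower in endothelial- and stromal-like cells.

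The cells that held the Cdkn1a transcripts also differed between the libraries. In room air, myeloid-like cells, 20.5% of the cells, held 49.96% of all Cdkn1a UMIs, and endothelial-like cells (27.7% of cells) held 26.4%. In hyperoxia, endothelial-like cells (24.7% of cells) held 42.7% and stromal-like cells (24.7% of cells) held 35.1%, against 11.8% in myeloid-like cells. The order of cell types by level differed accordingly. Classical monocyte-like (525 CPM) and C1q macrophage-like cells (511 CPM) led in room air with overlapping intervals. In hyperoxia aCap-like cells led (1627 CPM, 1600 to 1653), followed by gCap-like cells (1139 CPM, 1114 to 1164) and alveolar myofibroblast-like cells (1027 CPM), whose interval overlapped with that of vein-like cells (968 CPM).

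Cdkn1a had a higher value in hyperoxia in 23 of 23 cell types. Its counting interval lay above 0 in 20 of them, and the ratio reached 2-fold in 14. Across all pairs of a gene and a cell type, 4.52% were at least 2-fold higher in hyperoxia and 4.14% at least 2-fold lower. The share of all genes with intervals above 0 was not counted, and the contrast chose Cdkn1a, so nothing is read from these counts.

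Among stromal-like types, pericyte-like cells, the mural cells of capillaries, had the widest ratio, from 22.5 CPM (14.6 to 33.2) under room air to 875 CPM (826 to 926) under hyperoxia, 38.8-fold, with detection in 4.85% and 67.4% of cells. Alveolar myofibroblast-like cells, which build the alveolar septa, had 51.8 CPM under room air and 1027 CPM under hyperoxia (log2 ratio 4.31), and Tcf21 fibroblast-like cells 37.7 CPM and 705 CPM (4.23). In the latter 2 of the 215 room air cells held 56 of the 115 UMIs, and without the 2 highest cells of each library the log2 ratio was 5.15. Clusters present in both libraries had the difference within them. The shared myofibroblast-like cluster had 52.4 CPM and 1217 CPM, and the shared Tcf21 fibroblast-like cluster 36.5 CPM (4.42 to 132) and 857 CPM. Smooth muscle-like cells had 41.0 CPM and 420 CPM (3.36), or 3.90 without the 2 highest cells of each library, which held 22 of the 61 UMIs of room air. Adventitial fibroblast-like cells had 106 CPM and 412 CPM (1.95), but 2 of the 45 room air cells held 64 of the 94 UMIs, and without the 2 cells with most UMIs in each library the log2 ratio was 3.38.

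Among endothelial-like types, aCap-like cells (aerocytes, the capillary cells of gas exchange) had 347 CPM under room air and 1627 CPM under hyperoxia (log2 ratio 2.23, 2.09 to 2.37), and gCap-like cells (general capillary cells, which include the progenitors of capillaries) 119 CPM and 1139 CPM (3.26, 3.14 to 3.39). The level of aCap-like cells was 2.93-fold (2.58 to 3.33) that of gCap-like cells in room air and 1.43-fold (1.39 to 1.47) in hyperoxia. In the clusters of aCap-like cells that held cells of both libraries, the levels were 266 and 1582 CPM, 389 and 1719 CPM, and 607 and 1815 CPM under room air and hyperoxia. In the shared gCap-like clusters they were 172 and 1007 CPM, and 78.4 and 703 CPM. These gCap-like clusters were shallow, with medians of at most 0.365 of the median UMIs of their library. An aCap-like cluster of 35 and 216 cells had a median of 0.145. Vein-like cells had 217 CPM and 968 CPM (2.16), artery-like cells 155 CPM and 555 CPM (1.84), and cycling endothelial-like cells 300 CPM and 807 CPM (1.43). The cycling endothelial-like cells of hyperoxia had a UMI of the proliferation markers less often than those of room air, as given below.

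AT2-like cells, the surfactant-producing epithelium, had 37.7 CPM of Cdkn1a in room air and 359 CPM under hyperoxia (log2 ratio 3.25, 2.96 to 3.56). Most AT2-like cells of the 2 libraries lay in different clusters, and the 5 clusters with at least 30 hyperoxia cells ranged from 204 to 645 CPM, against 34.2 CPM in the cluster that held 145 of the 179 room air cells. AT1-like cells, the flat gas exchange epithelium, had 46.7 CPM and 154 CPM (1.72, 1.18 to 2.31), or 2.15 without the 2 highest cells of each library, which held 14 of the 33 UMIs of room air. Airway-like cells, the merged club and ciliated cells, had 152 CPM and 286 CPM (0.92, 0.46 to 1.35). Their median depth was 42528 UMIs in room air and 1836 UMIs in hyperoxia. Without the removal of doublets hyperoxia had 126 such cells at a median of 25170 UMIs, in place of 60.

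The myeloid-like types had 307 to 525 CPM in room air, a range that also held aCap-like cells (347 CPM), and none of them reached 2-fold. Alveolar macrophage-like cells had 352 CPM under room air and 588 CPM under hyperoxia (log2 ratio 0.74), dendritic cell-like 334 CPM and 646 CPM (0.95), classical monocyte-like 525 CPM and 784 CPM (0.58), nonclassical monocyte-like 358 CPM and 516 CPM (0.53), and C1q macrophage-like cells 511 CPM and 618 CPM (0.27, 0.081 to 0.47). In neutrophil-like cells the interval spanned 0, at 307 CPM and 312 CPM (0.03, -0.28 to 0.34).

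B-like cells had 17.3 CPM under room air and 77.5 CPM under hyperoxia (log2 ratio 2.16, 1.68 to 2.69), and CD4 T-like cells 33.2 CPM and 80.9 CPM (1.29, 0.71 to 1.91). In CD4 T-like cells of hyperoxia a single cluster of 90 cells held 141 of the 208 UMIs, at 284 CPM. The leading genes of this cluster included Cd163l1, Cxcr6 and Il17a but not Cd4. Its marker score was 1.587 for CD4 T cells and 1.396 for group 2 innate cells, so its name is uncertain. With cells typed by their own marker score the log2 ratio in CD4 T-like cells was -0.25, and no direction is read from it. In CD8 T-like (33.9 and 38.3 CPM, 0.18, -0.45 to 0.85) and NK-like cells (106 and 117 CPM, 0.14, -0.46 to 0.75) a difference was not detectable at this depth. In NK-like cells of room air 2 of the 48 cells held 17 of the 39 UMIs, and the log2 ratio was 0.70 without the 2 highest cells of each library. CD8 T-like cells had the lowest detection in hyperoxia, 5.24% of cells against 2.47% in room air, with median depths of 5550 and 9166 UMIs. Droplets also carry free RNA, and the shares of the 4 lymphocyte-like types compared, 5.24 to 19.7% in hyperoxia, were the lowest of all lineages. The summed level of 6 genes that mark free RNA was 1367 CPM under room air and 2038 CPM under hyperoxia in lymphocyte-like cells, and 2376 and 1151 CPM in endothelial-like cells, and its part in the lymphocyte-like values was not tested.

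**Figure D2:**
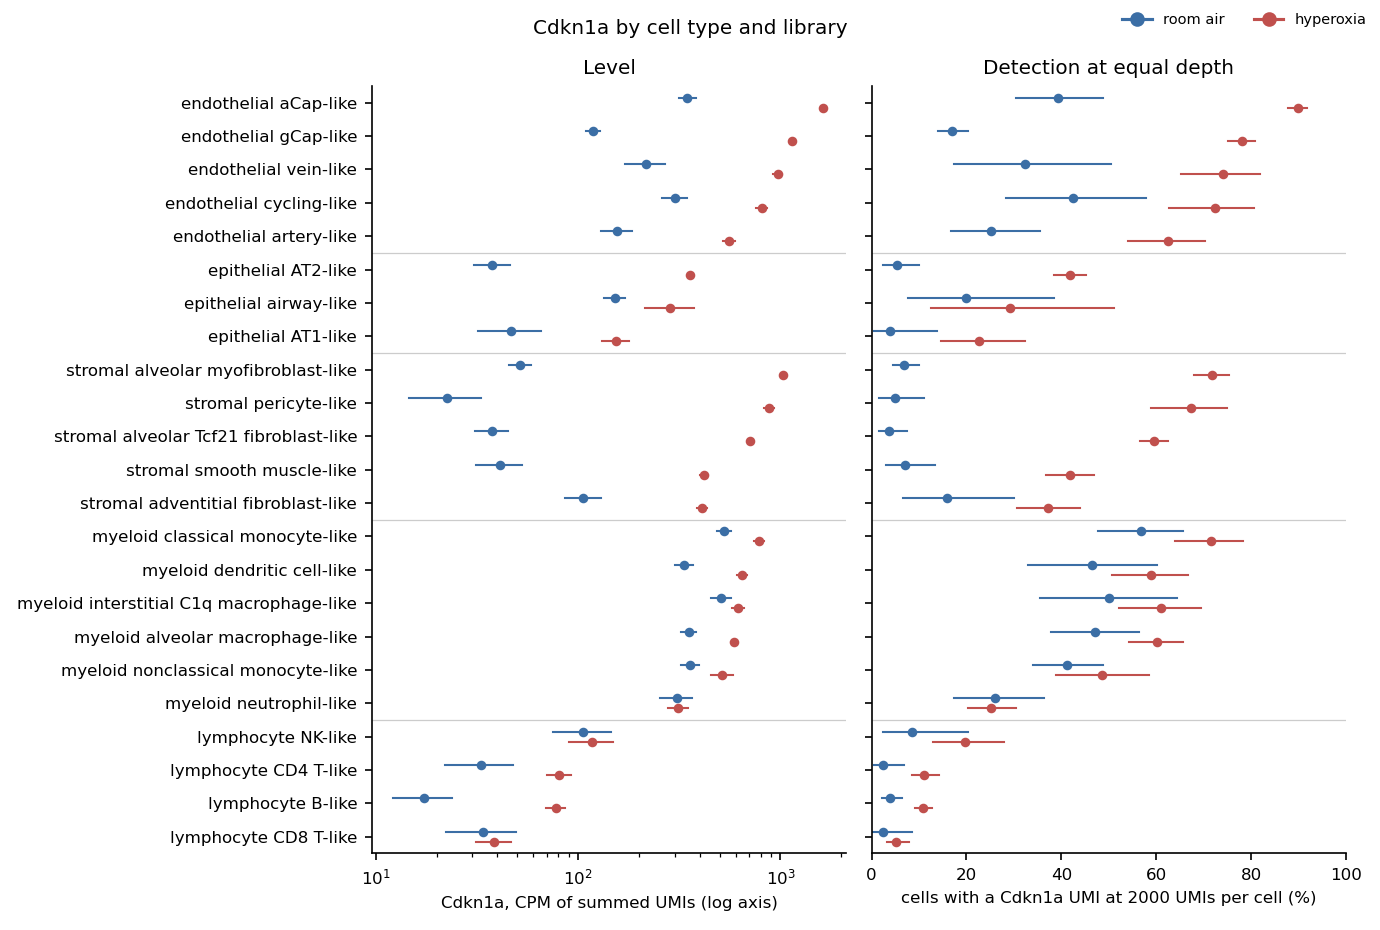
Cdkn1a in 23 cell types of room air (blue) and hyperoxia (red), as CPM of summed UMIs on a log axis (left) and as the share of cells with a UMI at 2000 UMIs per cell (right), with 95% counting intervals as bars. In hyperoxia aCap-like cells lie highest at 1627 CPM and 89.8% of cells, while neutrophil-, NK- and CD8 T-like cells lie close together in the 2 libraries.

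In endothelial- and stromal-like cells the difference extended over many cells. At 2000 UMIs per cell, 80.2% of endothelial-like cells of hyperoxia had a Cdkn1a UMI against 22.9% in room air, and 59.2% had at least 2 UMIs against 6.04%. In stromal-like cells the shares with at least 2 UMIs were 35.9% and 1.61%, and in aCap-like cells 73.1% and 17.9%. The highest count in an endothelial-like cell was 7 in room air and 16 in hyperoxia. In endothelial-like cells of hyperoxia the 10% of cells with the most held 29.6% of the Cdkn1a UMIs, against 61.6% in room air. This share also depends on the level, since only 22.9% of the room air cells had a UMI, so the contrast is not read apart from the level. Neutrophil-like cells had a more uneven distribution, where the top 10% of cells held 67.1% of the UMIs in room air and 73.8% in hyperoxia.

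**Figure D3:**
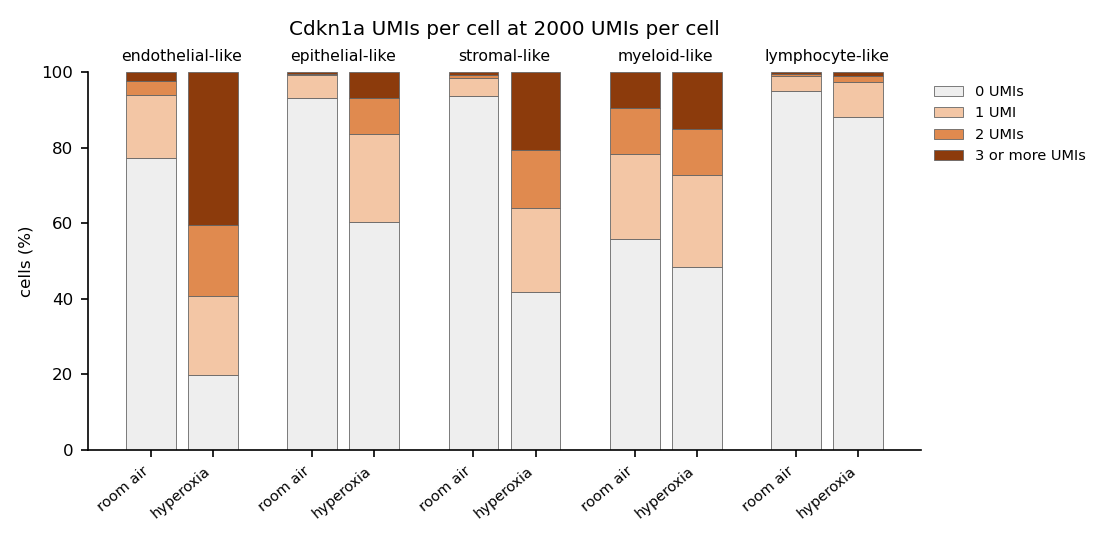
Share of cells (y axis, %) with 0, 1, 2 and 3 or more Cdkn1a UMIs after thinning to 2000 UMIs per cell, for 5 lineages in room air and hyperoxia. Endothelial-like cells without a UMI are 77.1% of cells in room air and 19.8% in hyperoxia, whereas the lymphocyte-like bars are mostly 0 in both libraries.

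Proliferation was examined beside the inhibitors, with a cell counted as cycling when it had at least 1 UMI of Mki67, Top2a, Birc5, Cenpf, Ube2c or Cdk1 at 2000 UMIs. Such cells were 8.56% of all cells in room air and 5.76% in hyperoxia, and 8.77% and 5.07% of endothelial-like cells. Cdkn1a was not absent from them. In endothelial-like cells of room air it was detected in 36.4% of cycling and 21.6% of other cells (difference 14.8 percentage points, 3.68 to 26.9), and in hyperoxia in 76.6% and 80.4% (difference -3.83, -13.0 to 4.34). In stromal-like cells of hyperoxia it was detected in 49.2% of 63 cycling cells and in 58.6% of 2375 others. Detection of Cdkn2c, the gene of p18, was concentrated in cycling cells of the endothelial-like lineage, at 22.1% of cycling and 1.62% of other cells in room air and 6.31% and 0.87% in hyperoxia. Cdkn2d was detected in 23.4% of cycling and 4.99% of other endothelial-like cells in room air, and in 4.50% and 5.83% in hyperoxia. Cells of 1 library are not replicates, so these shares are descriptions.

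**Figure D4:**
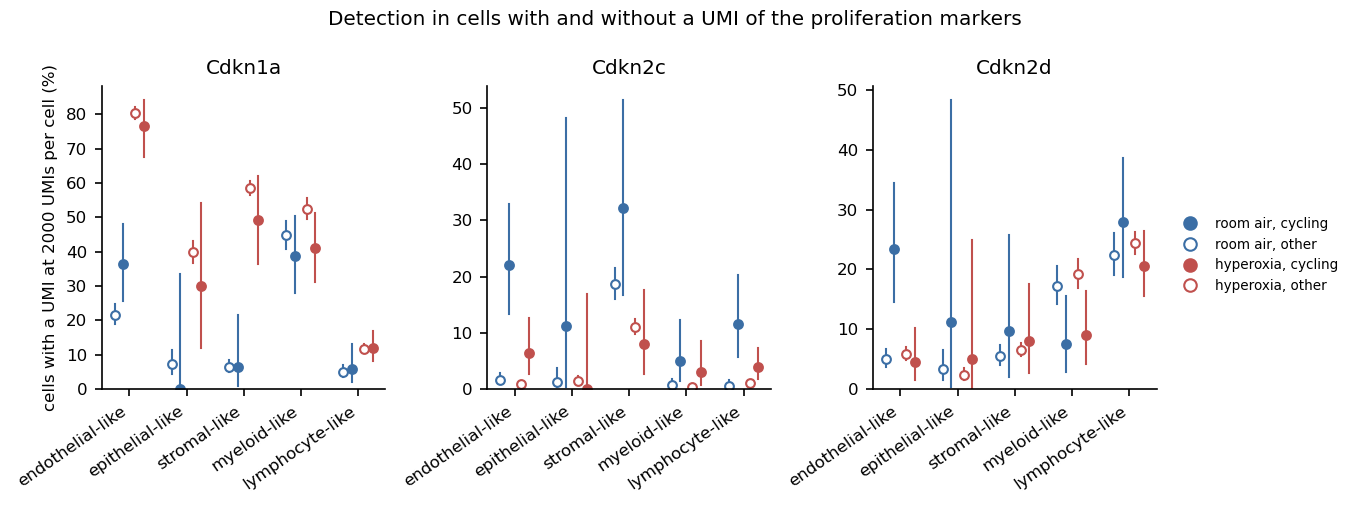
Share of cells with a UMI of Cdkn1a, Cdkn2c or Cdkn2d at 2000 UMIs per cell (y axis, %) in cells with (filled) and without (open) a UMI of 6 proliferation markers, by lineage and library, with 95% exact binomial intervals as bars. In room air endothelial-like cells, Cdkn2c (22.1%) and Cdkn2d (23.4%) are higher in cycling than in other cells.

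Cdkn1b, the gene of p27, which holds cells in quiescence and is controlled largely through the stability of its protein, was lower in hyperoxia. Over all cells its level was 154 CPM under room air and 111 CPM under hyperoxia (log2 ratio -0.48, -0.52 to -0.43). The log2 ratio was -0.40 with cell types weighted as in room air. It was below 0 in each of the 5 lineages, from -0.79 in myeloid-like (221 and 128 CPM) to -0.20 in lymphocyte-like cells (307 and 266 CPM). The interval lay below 0 in 13 of 23 types and above 0 in 0. The share of all genes with such intervals was not counted, so nothing is read from these numbers. A 2-fold lower level was reached in 2 of 23 types, against the background of 4.14% of pairs given above: cycling endothelial-like cells (141 and 51.2 CPM, -1.46) and alveolar macrophage-like cells (101.8 and 40.6 CPM, -1.33). In both types the cells of the 2 libraries differed, by their clusters in alveolar macrophage-like cells. In cycling endothelial-like cells they differed by their share with a UMI of the proliferation markers, as given below. Nonclassical monocyte-like cells had the highest level in both libraries, 493 CPM under room air and 387 CPM under hyperoxia. They were 6.33% of the cells in room air and 1.27% in hyperoxia, and the part of this makeup in the myeloid value was not tested. The level was higher in hyperoxia in 3 of 23 types, among them neutrophil-like cells (312 and 341 CPM).

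Cdkn1c, the gene of p57, was found mainly in stromal-like cells, which held 54.1% of its UMIs in room air and 78.1% in hyperoxia. In stromal-like cells it was at 200 CPM (192 to 208) under room air and 174 CPM (169 to 179) under hyperoxia, a log2 ratio of -0.20 (-0.27 to -0.13), with detection in 29.4% and 24.6% of cells. In B-like cells, which gave the background, it was detected in 0.80% and 1.32% of cells, at median depths of 4499 and 2927 UMIs. Pericyte-like cells had the highest stromal level and were higher in hyperoxia, with 463 CPM under room air and 753 CPM under hyperoxia (0.70, 0.55 to 0.86). Tcf21 fibroblast-like cells had 259 CPM and 179 CPM (-0.54, -0.66 to -0.42), smooth muscle-like cells 196 and 134 CPM (-0.55), and myofibroblast-like cells 113 and 90.6 CPM (-0.32). Adventitial fibroblast-like cells had 168 and 170 CPM (0.02, -0.25 to 0.29). The stromal lineage therefore held values of both signs.

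Artery-like endothelial cells had 147 CPM of Cdkn1c in room air and 319 CPM under hyperoxia, a log2 ratio of 1.12 (0.83 to 1.42), with detection in 15.4% and 34.2% of cells. In room air 2 of the 93 artery-like cells held 43 of the 120 UMIs, and without the 2 highest cells of each library the log2 ratio was 1.58. The other endothelial-like types had at most 26.1 CPM in either library.

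In epithelial-like cells Cdkn1c was at 336 CPM under room air and 46.7 CPM under hyperoxia (log2 ratio -2.85), where airway-like cells held 1651 of the 1695 UMIs of room air. These had 907 CPM under room air and 44.0 CPM under hyperoxia (-4.37, -5.58 to -3.38) with detection in 43.3% and 4.17% of cells at equal depth. In room air these came from 24 of 32 cells, 18 of them with at least 5 UMIs, and the 5 cells with the most held 1113 UMIs. The airway-like cells of hyperoxia held 8 UMIs in all. The 2 sets of cells also differed in depth, the medians being 42528 UMIs (room air) and 1836 UMIs (hyperoxia), and in the removal of doublets. Without any removal, 126 airway-like cells of hyperoxia had a median of 25170 UMIs and 257 CPM of Cdkn1c, against 904 CPM under room air, a log2 ratio of -1.82. When 2 times the expected share of doublets was removed, the median in room air was 2102 UMIs and the sign turned, with 135 CPM under room air and 1310 CPM under hyperoxia (3.28), and 0.41 in all epithelial-like cells. No direction is therefore read from the Cdkn1c levels of airway-like and epithelial-like cells. Scgb1a1, the secretory gene of club cells, was at 17290 CPM over all cells in room air and 593 CPM under hyperoxia. These values came from the cells kept after the removal of doublets, whose part in them was not tested, so no direction is read from them.

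AT2-like cells had 13.5 CPM and 50.3 CPM, but in hyperoxia 1 cell held 366 and another 78 of the 629 UMIs, detection was 3.03% and 2.80%, and without the 2 highest cells of each library the log2 ratio of 1.90 became 0.50. Of the 12 types that passed a mean of 10 CPM for Cdkn1c, 3 were at least 2-fold higher and 3 at least 2-fold lower, against 4.52% and 4.14% of all pairs of a gene and a cell type. The 3 higher were artery-, AT2- and CD4 T-like cells, of which AT2-like cells rested on the 2 cells above. CD4 T-like cells had 7.11 CPM (2.61 to 15.5) under room air and 14.4 CPM (10.1 to 19.8) under hyperoxia. The 3 lower were cycling endothelial-, AT1- and airway-like cells. AT1-like cells had 14.1 CPM (6.78 to 26.0) and 6.39 CPM (2.57 to 13.2). The CD4 T- and AT1-like levels lay near the filter, and their intervals overlapped between the libraries. The log2 ratio in AT1-like cells turned to 0.90 without the removal of doublets, so that no direction is read from AT1-like or airway-like cells.

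**Figure D5:**
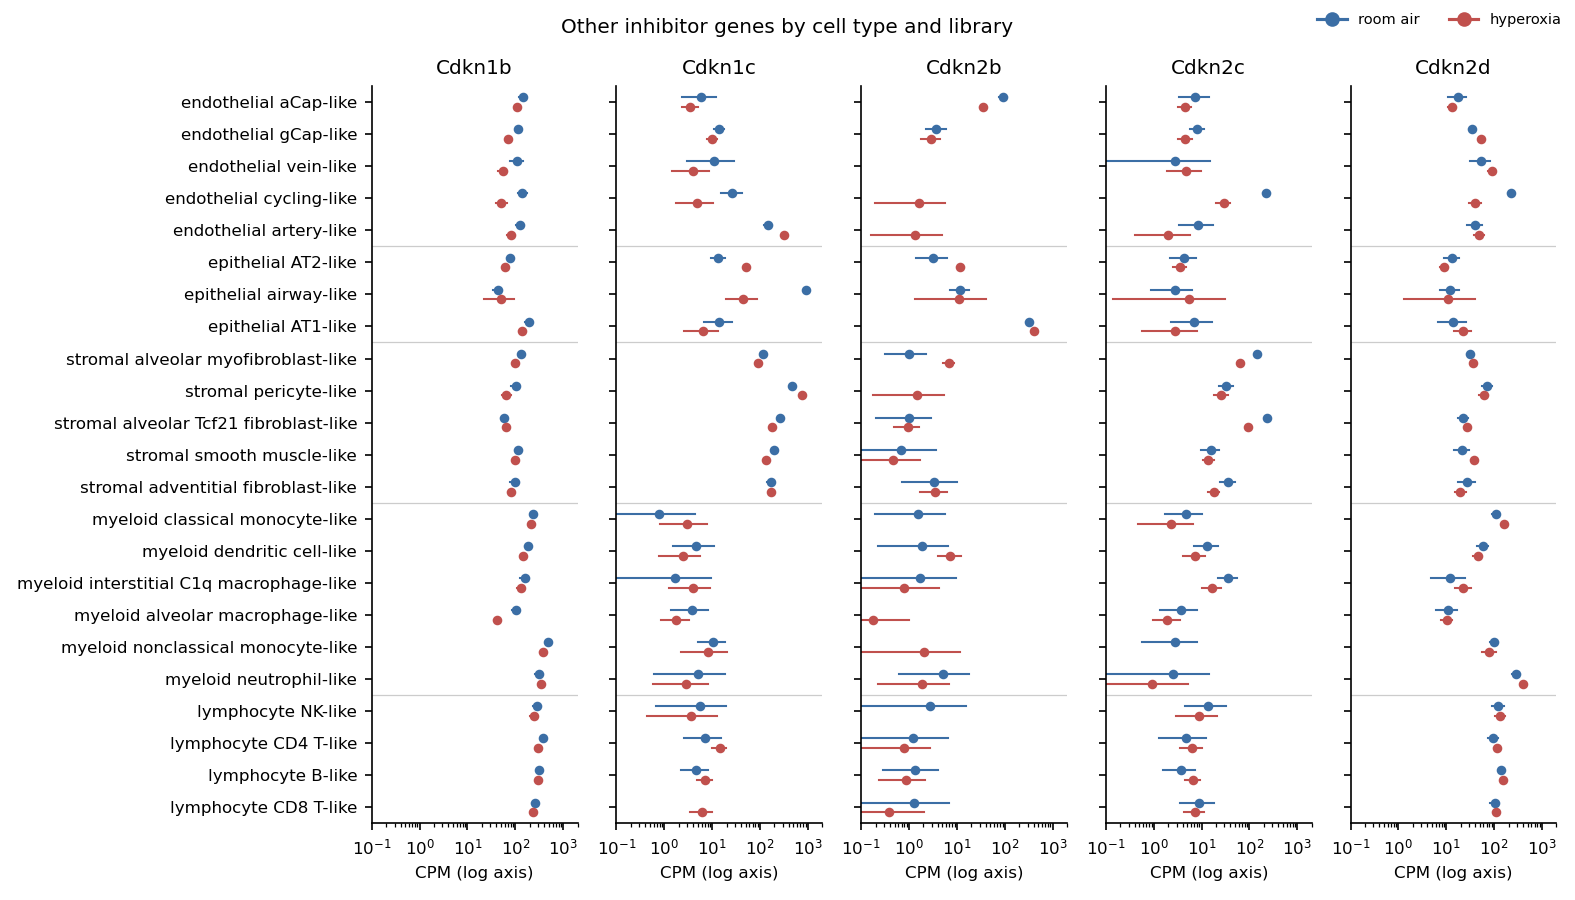
Levels of Cdkn1b, Cdkn1c, Cdkn2b, Cdkn2c and Cdkn2d in 23 cell types of room air (blue) and hyperoxia (red), as CPM of summed UMIs on log axes, with 95% Poisson intervals as bars; a type at 0 has no point. Cdkn1c stands high in stromal-like, artery-like and room air airway-like cells, Cdkn2b in AT1-like cells, and Cdkn2c in Tcf21 fibroblast-, myofibroblast- and room air cycling endothelial-like cells.

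Cdkn2a was close to absent at this depth, with 30 UMIs in all cells of room air and 61 in those of hyperoxia. In 15 of 23 types of room air and 8 of hyperoxia no UMI was counted, and no type reached a mean of 10 CPM. The highest value was in AT1-like cells, with 8.49 CPM (3.11 to 18.5) under room air and 7.30 CPM (3.15 to 14.4) under hyperoxia. In aCap-like cells 8 UMIs (6.58 CPM) and 18 UMIs (2.02 CPM) were counted. No higher level of Cdkn2a in hyperoxia was detectable over all cells (0.82 and 0.69 CPM, log2 ratio -0.25, -0.90 to 0.43).

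Its neighbour Cdkn2b, the gene of p15 and a known target of TGF-beta signalling, was found mainly in AT1- and aCap-like cells. AT1-like cells had 317 CPM (277 to 361) under room air and 417 CPM (380 to 457) under hyperoxia, a log2 ratio of 0.40 (0.16 to 0.63), with detection in 40.0% and 47.3% of cells. In aCap-like cells the level was 90.5 CPM (74.4 to 109) under room air and 34.7 CPM (30.9 to 38.8) under hyperoxia (-1.38, -1.70 to -1.06), with detection in 15.4% and 6.97% of cells. Thus the 2 types that face each other across the air-blood barrier, and had the highest levels in both libraries, had ratios of opposite sign. The interval of the detection difference spanned 0 in AT1-like cells. Different clusters held most of the aCap-like cells in the 2 libraries. Cdkn2b passed a mean of 10 CPM in 3 types, and epithelial-like cells held 61.9% of its UMIs in room air and 57.2% in hyperoxia.

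Cdkn2c was lower in hyperoxia. Over all cells it was at 52.6 CPM under room air and 25.2 CPM under hyperoxia (log2 ratio -1.06, -1.15 to -0.97), and at -1.201 with cell types weighted as in room air. Stromal-like cells held 80.8% and 85.0% of its UMIs and had 133 CPM (127 to 140) and 64.2 CPM (61.4 to 67.2). Tcf21 fibroblast-like cells had 232 CPM and 95.7 CPM (-1.28, -1.41 to -1.14) and myofibroblast-like cells 147 CPM and 64.1 CPM (-1.195, -1.36 to -1.03), with detection in 27.3% and 15.98% of the former and 24.6% and 10.4% of the latter. Only 3.83% of stromal-like cells of room air and 2.58% of hyperoxia were cycling by the markers above, and among the stromal-like cells that were not, Cdkn2c was detected in 18.6% in room air and 11.03% in hyperoxia. Pericyte-like (32.4 and 25.8 CPM) and smooth muscle-like cells (15.4 and 13.8 CPM) had low levels with intervals that spanned 0. At least 2-fold lower levels were found in 5 of the 9 types that passed the filter, against 4.14% of all pairs of a gene and a cell type, the other 3 being cycling endothelial-, adventitial fibroblast- and C1q macrophage-like cells. In adventitial fibroblast-like cells 2 of the 45 room air cells held 14 of the 32 Cdkn2c UMIs, and without the 2 highest cells of each library the log2 ratio was -0.46, under 2-fold.

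In cycling endothelial-like cells Cdkn2c and Cdkn2d were both lower in hyperoxia, with 225 and 28.8 CPM of Cdkn2c (log2 ratio -2.97, -3.53 to -2.43) and 227 and 40.0 CPM of Cdkn2d (-2.50, -3.00 to -2.03). These were 47 cells of room air and 105 of hyperoxia, of which 80.9% and 34.3% had a UMI of the proliferation markers. Among the cells with such a UMI, Cdkn2c was detected in 42.1% of 38 cells in room air and 16.7% of 36 in hyperoxia, and Cdkn2d in 44.7% and in 0 of 36 cells, for which the upper bound was 9.74%. The 23 G2/M genes summed to 9611 CPM under room air and 683 CPM under hyperoxia in this type, while the 23 S phase genes summed to 2576 and 3208 CPM. The 6 genes that mark free RNA summed to 18800 and 1353 CPM and 6 stromal genes to 903 and 198 CPM, and their part in the values was not tested.

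Apart from these cells Cdkn2d, which is known to be present in non-dividing cells, differed little. Over all cells it was at 55.1 CPM under room air and 48.2 CPM under hyperoxia (log2 ratio -0.19, -0.27 to -0.12). With cell types weighted as in room air the log2 ratio was 0.048, so no direction is read from the value over all cells. All 23 types passed the filter, 14 had a higher value in hyperoxia, and 1, the cycling endothelial-like cells, was at least 2-fold lower. Neutrophil-like cells had the highest level, 292 CPM (241 to 350) under room air and 400 CPM (362 to 439) under hyperoxia (0.45, 0.15 to 0.76). Among the other types with intervals above 0 were gCap-like (34.5 and 53.1 CPM, 0.62) and classical monocyte-like cells (107 and 164 CPM, 0.62).

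The genes around the inhibitors were described from lists. Of 24 p53 targets other than Cdkn1a, 20 passed the filter over all cells, 7 were at least 2-fold higher in hyperoxia and 0 lower, and their median log2 ratio was 0.38, against 0.01 over all genes. Zmat3, an RNA-binding protein (17.5 and 60.0 CPM, 1.78), and Gdf15, a stress cytokine (24.02 and 72.2 CPM, 1.59), had the largest ratios, and Pmaip1 (-0.33) and Plk2 (-0.20) the smallest. The count at least 2-fold higher was 8 of 17 in stromal-like, 7 of 21 in endothelial-like, 7 of 15 in epithelial-like, 3 of 19 in myeloid-like and 0 of 16 in lymphocyte-like cells. Of the 18 list genes with a promoter in the table, 1, Ccng1, held the p53 element as defined above. Trp53, the gene of p53, was itself at 105 CPM under room air and 95.5 CPM under hyperoxia.

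Of the 15 CDKs, cyclins and pocket proteins through which the inhibitors act, 11 passed the filter and 1, Ccnd1 (cyclin D1), was at least 2-fold higher, with 139 CPM under room air and 331 CPM under hyperoxia (log2 ratio 1.25). Ccnd3 (0.23), Rbl1 (-0.55) and E2f3 (-0.50) stayed under 2-fold, and the list's median was -0.09. Of 13 G2/M genes that passed, 12 were at least 2-fold lower (median -1.83), whereas 1 of 15 S phase genes was (median -0.23). In endothelial-like cells 17 of 17 G2/M genes were at least 2-fold lower, with a summed level of 835 CPM under room air and 107 CPM under hyperoxia, while the S phase genes summed to 556 and 549 CPM. The lower G2/M sum was that of the cycling endothelial-like cells (9611 and 683 CPM, 47 cells of room air), and the sums of the other 4 endothelial-like types were low and had higher values in hyperoxia. They were 71.05 and 84.71 CPM in gCap-like, 39.49 and 46.45 CPM in aCap-like, 50.06 and 68.88 CPM in artery-like and 57.54 and 113 CPM in vein-like cells, and the intervals of the ratio spanned 0 in aCap- and artery-like cells. Of 19 regulators of the inhibitors' transcription or turnover, 0 reached 2-fold in either direction (median -0.05). Klf4, a transcription factor known to act on Cdkn1a, had 0.57, Fbxw7 0.51, Cks1b -0.47 and Ezh2 -0.34.

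Of 14 genes often raised in senescent cells, 12 passed the filter, 5 were at least 2-fold higher and 1 lower (median log2 ratio 0.71). Timp1, an inhibitor of metalloproteinases (1.89), and Gdf15 (1.59) had the largest ratios, Igfbp5 the smallest, with 513 CPM under room air and 162 CPM under hyperoxia (-1.66), and Areg had -0.52. Of 11 imprinted growth genes other than Cdkn1c, 0 reached 2-fold (median -0.08), with Igf2r at 0.78, Igf2 at 0.73, H19 at -0.84 and Plagl1 at -0.34. The 15 genes of the response to tissue dissociation summed to 7458 CPM under room air and 8594 CPM under hyperoxia over all cells, and to 8210 and 11860 CPM in stromal-like, 7033 and 8216 CPM in endothelial-like and 4090 and 2093 CPM in epithelial-like cells. In the cells below the median of this response within their type, the log2 ratio of Cdkn1a over all cells was 2.44.

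Over the 46 groups formed by 23 types in 2 libraries, the genes whose log2 levels followed Cdkn1a most closely among 8481 were Brk1 (Pearson's r = 0.68), Lamtor1 (0.66) and Bax (0.66), the last a p53 target. Those most like Cdkn1c were Rsph9 (0.85), Mpp2 (0.81) and Map1a (0.81), of which Rsph9 encodes a part of the ciliary radial spoke. The groups share libraries and depth, and these values are descriptions.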

How the data were processed

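The authors demultiplexed the reads, used Cell Ranger with the mm10 gene models to count UMIs, and deposited the raw counts of the barcodes called as cells, for 1 pooled library per group. The sources name Cell Ranger 6.1.1 (protocol), 2.1.1 (processing notes) and software 3.1.0 (matrix header), and version 2 or version 3 of the 10X kit, which the counts do not settle. The 7 genes, the gene lists and the tests were chosen with earlier results of these data known.

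Barcodes with fewer than 500 genes (345 in room air, 1026 in hyperoxia) or over 20% mitochondrial UMIs (80 and 486) were removed, and then the cells most like simulated doublets, at 0.8% per 1000 barcodes (129, or 3.39%, and 1239, or 10.6%). The remaining 14152 of 17457 barcodes were clustered (2000 variable genes, 30 components, 20 neighbours, Leiden at resolution 1, seed 1), first into lineages and then within them. The 7 genes, mitochondrial and sex-linked genes did not enter the clustering. Names came from marker lists by a rule set after the clusters had been seen, and 5 clusters of 131 cells stayed unnamed. CPM has an exact Poisson interval, ratios an exact conditional interval and shares an exact Clopper-Pearson interval. Thinning to 2000 UMIs left out 375 cells of room air and 1271 of hyperoxia. Ratios are described for a mean of at least 10 CPM, and 2-fold is used as a mark of size, since no test exists with 1 library per group. The ratio and thinning steps were tested on simulated data. From each list the 2 genes highest and the 2 lowest by ratio over all cells are named, and the 3 genes most like Cdkn1a and Cdkn1c by Pearson's r of log2(CPM + 1) among genes with at least 50 CPM in a group. Alternatives covered scaling, filters, doublets, clustering, cycling cells, the dissociation response and depth, and, chosen after seeing the data, leaving out the 2 cells with most UMIs of a gene in each library. Python 3.11.15, numpy 2.4.6, scipy 1.17.1, pandas 2.3.3, scikit-learn 1.9.0, igraph 0.11.9, leidenalg 0.10.2 and matplotlib 3.10.9 were used.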

Additional observations from a re-analysis of the deposited data

Results flagged for a closer look

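Cdkn1c differed in direction between cell types under the same contrast, and the difference was not tested. The log2 ratio was 1.12 in artery-like and 1.90 in AT2-like cells, and -2.44 in cycling endothelial-like and -4.37 in airway-like cells. The AT2-like value rested on 2 cells and the airway-like value turned with the removal of doublets, whereas the artery-like value was accompanied by detection in 34.2% of cells at equal depth against 15.4% in room air. Cdkn1c in cycling endothelial-like cells was 17 UMIs in room air and 6 in hyperoxia, and the share of these cells with a UMI of the proliferation markers also differed, as given above.

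Some cell types had fewer than 30 cells in a library, took no part in the comparisons and had values past 2-fold. Cdkn1a had a log2 ratio of 1.49 in lymphatic endothelial-like cells (14 and 64 cells) and of -1.38 in cycling lymphocyte-like cells (27 and 27 cells), where its level was 158 CPM under room air and 60.6 CPM under hyperoxia. In the same cycling lymphocyte-like cells Cdkn1b had -1.13 and Cdkn2c -1.02. Cdkn2d had -1.25 in group 2 innate-like cells. Cdkn1c had 4.45 in mast cell- or basophil-like cells, with 3 UMIs in 25 cells of room air (12.7 CPM) and 40 UMIs in 20 cells of hyperoxia (277 CPM). None of these differences was tested.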

How the results depend on the processing

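No paired analysis was possible because each group was 1 pooled library, and no replicate could be left out. The log2 ratio of Cdkn1a over all cells (2.24) was 2.29 with TMM factors, 2.00 as a mean over single cells, 2.29 with double the expected share of doublets removed, 2.36 in cells with no proliferation UMI, 2.44 in cells below the median dissociation share and 2.39 with room air makeup. Of the cell types, 14 had Cdkn1a at least 2-fold higher, and 9 of 13 when 100 cells were required. Under the other settings that kept the 2-fold mark the count was 13 to 15, of 18 to 24 types compared. At a mark of 1.5-fold it was 17. The difference of detection (30.6 percentage points) was 23.2 at 1000 UMIs, 39.2 at 4000 UMIs and 34.7 with room air makeup. The log2 ratio of Cdkn1c in stromal-like cells (-0.20) was -0.071 as a mean over single cells, -0.0913 at resolution 2 and -0.27 in cells below the median dissociation share. Without a filter on low values 4.07% of genes were at least 2-fold higher, in place of 0.921%, and 11.7% lower, in place of 1.37%.

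The 133 values of single genes in lineages and cell types were recomputed under 1632 alternatives. Of these, 1425 stayed within their counting error, 196 moved past it and 11 reversed. Only a change of sign in a value at least 2-fold under the main settings was called a reversal. Smaller values also changed sign. As a mean over single cells 112 of 133 values kept their sign, and without doublet removal 113 of 129 did. Cdkn1a was higher in hyperoxia in 340 of 348, and of 480 values past 2-fold, 421 stayed past it. The reversals were Cdkn1a in CD4 T-like cells (-0.25 with cells typed by their own marker score, -0.075 at low dissociation), and Cdkn1c in epithelial-like (0.41, double doublets), airway-like (3.28, double doublets), AT1-like (0.90, no doublet removal) and AT2-like cells (-0.090 with stricter filters, -0.11 with double doublets, -0.22 and -0.24 at resolutions 0.5 and 2, -0.20 by own marker score, -0.12 at low dissociation). The causes were not tested beyond the values given above for airway-like cells. Depth limits Cdkn2a and the lymphocyte-like values of Cdkn1a.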
